A study of Mus musculus with 6 samples.

Results

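The 9 genes described here let T cells roll, stick, cross vessel walls and leave lymphoid tissue, and were followed in sorted mouse regulatory T cells labelled as Bcl11b knockout or wild type. They are 3 integrin α chains (Itgae, Itga4 and Itgal), 3 integrin β chains (Itgb1, Itgb7 and Itgb2), the selectin ligand Selplg, the hyaluronan receptor Cd44 and the lymph node exit receptor S1pr1. The genes were chosen by name, and all 9 were found among the 24424 genes of the count table and the 23393 genes of the authors' normalized table. RNA sequencing covered 6 libraries in 3 groups of 2. The KO EAE group carried a Bcl11b knockout label together with EAE, the usual short name of experimental autoimmune encephalomyelitis, in which mice mount a T cell attack on myelin. The KO group carried the same genotype label at steady state, and the WT group was wild type at steady state. The strain label of both KO groups is Bcl11bF/WT Foxp3YFP-Cre +/-, which names 1 floxed and 1 wild-type allele beside the KO genotype, while the WT strain label is Bcl11bF/F with no Cre. Cre is driven by Foxp3, so recombination is directed to regulatory T cells and to progeny that once expressed Foxp3. All cells were sorted from spleen and peripheral lymph nodes. Ages are not given, and no WT EAE library was analysed here. Whether replicates were separate animals is not in the labels, so p-values measure only the spread between these libraries, which may be technical.

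Integrins are pairs of an α and a β chain, and the pairing sets the ligand. The αE chain pairs with β7 to bind E-cadherin on epithelium. The α4 chain pairs with β7 to bind MAdCAM-1 of gut vessels, or with β1 to bind VCAM-1 of inflamed endothelium, including that of the central nervous system. The αL chain pairs with β2 to form LFA-1, which binds ICAMs. PSGL-1, the product of Selplg, supports rolling on selectins; CD44 binds hyaluronan and is high on activated and memory T cells. S1PR1 senses sphingosine 1-phosphate and carries lymphocytes out of lymph nodes.

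The starts of 4 of the 9 genes had an entry in the RefSeq promoter set (GRCm38.p6, the release behind mm10). Cd44 and Itgb1 are shown as the members called higher in KO cells, Itgb7 as the member called in the authors' table, and Itga4 as the α chain that can pair with either β1 or β7. Each line gives the 150 bases upstream of the first annotated exon base, 5′ to 3′ on the gene's strand, with motif matches in capitals.
Cd44, chr2:102901666-102901815, minus strand: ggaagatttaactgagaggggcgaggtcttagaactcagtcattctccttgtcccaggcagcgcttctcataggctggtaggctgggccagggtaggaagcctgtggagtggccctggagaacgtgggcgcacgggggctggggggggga
Itgb1, chr8:128685504-128685653, plus strand: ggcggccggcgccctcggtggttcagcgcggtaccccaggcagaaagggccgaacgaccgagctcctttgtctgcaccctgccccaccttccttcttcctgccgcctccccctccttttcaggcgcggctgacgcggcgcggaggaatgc
Itgb7, chr15:102231945-102232094, minus strand: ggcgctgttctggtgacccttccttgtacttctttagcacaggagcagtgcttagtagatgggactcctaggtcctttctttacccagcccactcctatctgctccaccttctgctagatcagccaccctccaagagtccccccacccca
Itga4, chr2:79255276-79255425, plus strand: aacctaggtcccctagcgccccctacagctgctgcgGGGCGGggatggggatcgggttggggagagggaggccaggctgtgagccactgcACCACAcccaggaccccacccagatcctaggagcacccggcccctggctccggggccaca
On both strands, 3 motifs were searched: the GC box GGGCGG, the RUNX motif TGTGGT and the AP-1 motif TGANTCA. No 2 matches overlapped. Itga4 held 1 GC box and 1 RUNX match on its minus strand, and the other 3 windows held none of these letters. Among 27025 mouse promoters of the same length, 29.0% held the GC box, 8.53% the RUNX motif and 4.27% the AP-1 motif. Those promoters were placed by the RefSeq start alone, without the cut at the first annotated exon base. G and C made up 70.7% of the Itga4 window, 70.0% for Itgb1, 62.0% for Cd44 and 55.3% for Itgb7, against a median of 54.0% over all those promoters. These matches describe the letters only; no binding was measured.

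The count table held 15525373 to 15704030 reads per KO EAE library, 14663542 to 16904312 per KO library and 16501787 to 16512337 per WT library, and 3 reads, taken as the floor, equalled a CPM (reads of a gene scaled to a common library size) of 0.177 to 0.205, which covers counting error only. Every member lay far above that floor, with at least 1058 reads in each library. Bcl11b itself had 401 and 279 CPM in KO EAE cells, 387 and 369 in KO cells and 406 and 420.1 in WT cells, a log2 change of -0.19 for KO against WT (edgeR's quasi-likelihood F test, adjusted p = 0.527). In the authors' normalized table it stood at 6746 and 5211 in KO and 10518 and 11371 in WT. The change there was -0.88 ± 0.14 (limma, adjusted p = 0.065), and the authors' deposited table lists -0.80 ± 0.12 with an adjusted p of 7.9e-08. Reads outside the floxed exons enter the values of both tables. Their part was not measured, and the difference between the tables was not tested. T cell genes were present in every library: Cd3e had 148 to 149 CPM in KO EAE, 147 to 149.96 in KO and 144 to 145 in WT, and the summed CPM of 12 T cell genes was 2508 to 2647 in KO EAE, 2527 to 2656 in KO and 2541 to 2583 in WT. Foxp3 had 149.69 and 162 CPM in KO EAE, 155 and 172 in KO and 204 in both WT libraries. All 7 Treg genes of a marker list passed the test as lower in KO than in WT, of which 2 (Il2ra and Lrrc32) held in all 4 fits that left out 1 library; limma called only Lrrc32 of the 7 in the normalized table, and Foxp3 overlapped there, at 2306 and 2061 in KO and 2178 and 2419.7 in WT. The authors' deposited table calls Lrrc32, Nrp1, Il2ra, Ikzf2 and Ctla4 lower (adjusted p of 1.7e-16 to 0.0116), and not Foxp3 or Tnfrsf18 (0.922 and 0.692). Over all genes tested in the count table, 3.46% were called lower and 9.41% higher. Myeloid markers moved with the genotype: 13 of 14 rose in KO against WT. Their summed level was 1712 to 2098 CPM in KO EAE, 2105 to 2374 in KO and 292 to 329 in WT. In the normalized table limma called 1 of the 14 higher, beside 0.14% of genes tested, at a list median of 1.53. The NK list summed to 183 to 339, 244 to 248 and 81.2 to 89.7 CPM in KO EAE, KO and WT, and the B cell list to 86.7 to 168, 115 to 167 and 43.6 to 47.4 CPM. Of the 10 NK genes 2 were at 0 in all libraries, whereas no myeloid or B cell marker was. In bulk samples, fewer cells of a type and less RNA per cell cannot be told apart.

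In KO cells at steady state, Cd44 and Itgb1 rose against WT, and no member fell past the threshold. The genes called thus comprised 2 of the 9 members, both higher, beside 12.9% of the 14548 genes tested (9.41% higher and 3.46% lower). The members' median log2 change was -0.01, equal to that of all genes tested. The 9 changes lay between -1.003, for Itgae, and 0.65, for Cd44. In KO EAE cells the same 2 genes were called against the same WT libraries, beside 9.36% of all genes tested (7.41% higher and 1.95% lower).

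**Figure D1:**
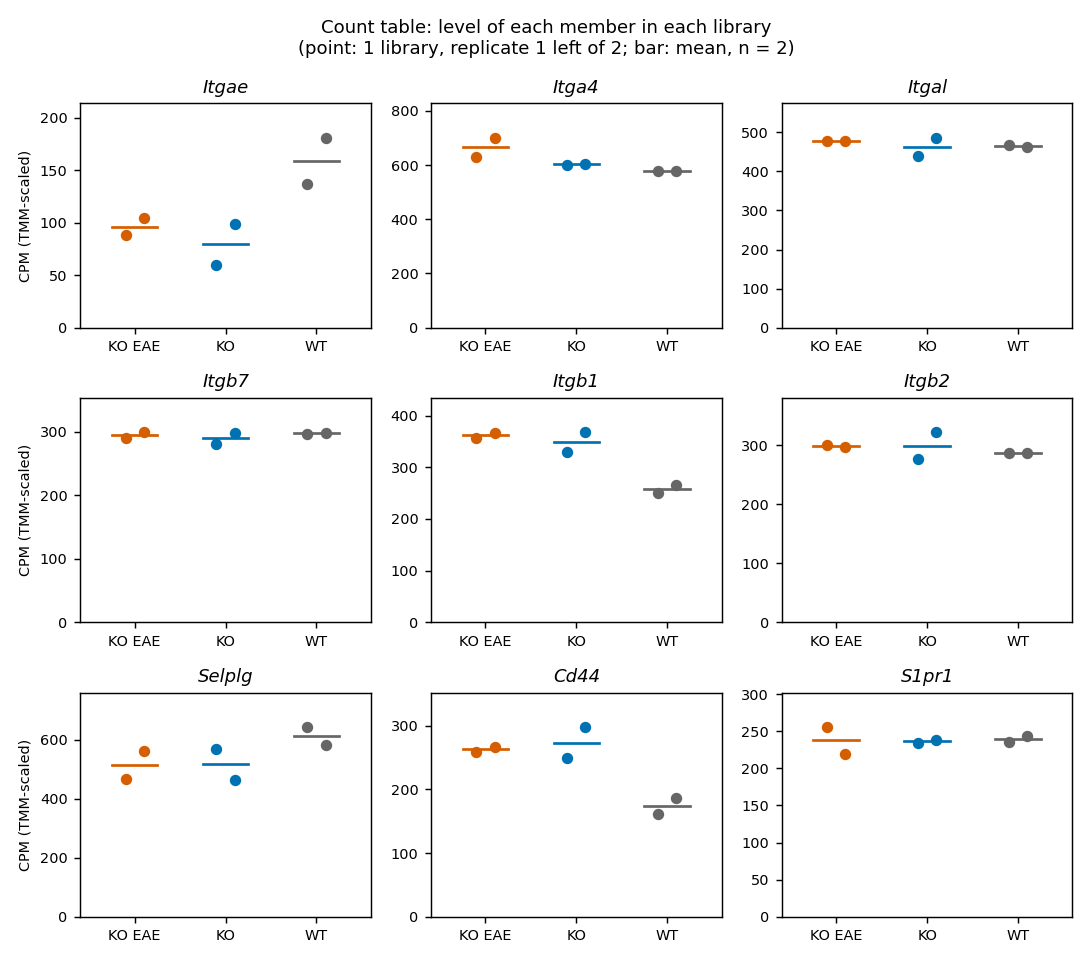
Level of each member in the count table, in TMM-scaled CPM on a linear axis from 0; each point is 1 library and each bar the mean of 2, with KO EAE, KO and WT from left to right. Both KO groups lie above WT for Cd44 and Itgb1 and below WT for Itgae and Selplg, while Itgb7 stays between 281 and 299.67 CPM in all 6 libraries.

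Cd44 (ENSMUSG00000005087, chromosome 2, 102811141 to 102901665, minus strand, mm10) had 259 and 267 CPM in KO EAE cells, 249 and 298 CPM in KO cells and 162 and 187 CPM in WT cells. All 4 knockout libraries lay above both WT libraries. The log2 change was 0.65 ± 0.12 (SE) for KO against WT (edgeR, adjusted p = 0.0178) and 0.59 ± 0.12 for KO EAE against WT (edgeR, adjusted p = 0.0316). CD44 also occurs on many other leukocytes, myeloid cells included, and the summed myeloid markers were higher in the same libraries; their part in the change was not tested. Leaving out 1 of the 4 libraries kept the KO call in 1 of 4 fits, without KO replicate 1 (adjusted p = 0.029), and ended it in the others, with an adjusted p of up to 0.105 and a log2 change of 0.51 to 0.78. The KO EAE call held only without KO EAE replicate 1 (adjusted p of 0.0287 to 0.165 over the 4 fits). The authors' normalized values were 3507 and 2790 in KO against 2116 and 2410 in WT, again without overlap. Their log2 change was 0.47 ± 0.16 (limma, adjusted p = 0.288), and the authors' deposited table lists 0.41 ± 0.15 with an adjusted p of 0.112.

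Itgb1 (ENSMUSG00000025809, chromosome 8, 128685654 to 128733200, plus strand), the β chain of α4β1 and of many matrix receptors, had 357 and 366 CPM in KO EAE, 329 and 368 CPM in KO and 250.0 and 266 CPM in WT. These groups did not overlap in either comparison with WT. The log2 change was 0.43 ± 0.09 for KO against WT (edgeR, adjusted p = 0.0302) and 0.49 ± 0.09 for KO EAE against WT (edgeR, adjusted p = 0.0258). Without any 1 of the 4 libraries the KO call was lost, with an adjusted p of 0.0517 to 0.187 and a log2 change of 0.35 to 0.52. For KO EAE it held only without KO EAE replicate 1 (adjusted p of 0.0172 to 0.169 over the 4 fits). The normalized table gave 22820 and 20185 in KO against 14837 and 20022 in WT, where the lower KO library lay just above the higher WT library. The change there was 0.32 ± 0.15 (limma, adjusted p = 0.403), and 0.28 ± 0.12 with an adjusted p of 0.257 in the authors' deposited table. Like CD44, β1 integrin is not restricted to T cells. The summed myeloid markers were higher in both knockout groups than in WT, and what they contributed was not tested.

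Itgb7 (ENSMUSG00000001281, chromosome 15, 102215995 to 102231944, minus strand), the partner of both αE and α4, differed between the 2 deposited tables. In the count table it had 290.35 and 299.67 CPM in KO EAE, 281 and 299 CPM in KO and 297 and 299 CPM in WT, so the groups overlapped. Its log2 change for KO against WT was -0.04 ± 0.08 (edgeR, adjusted p = 0.778). Among the normalized values, KO had 28014 and 27537 against 36852 and 34307 in WT, a gap wider than the spread in either group. That was a log2 change of -0.36 ± 0.09, which missed the threshold after adjustment (limma, adjusted p = 0.177, unadjusted p = 0.00341). In the authors' deposited table Itgb7 is the 1 member of 9 called, at -0.34 ± 0.09 with an adjusted p of 0.00718, beside 3.36% of the 10396 genes with an adjusted p there. DESeq2 on the reads recovered from the normalized table called it at -0.36 (adjusted p = 0.00844). Those reads come from the same libraries as the authors' comparison, so this is no independent result. On the same reads edgeR gave -0.35 and no call (adjusted p = 0.189). Values in the 2 tables differ for libraries of the same name, and that difference was not tested.

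Itgb2 (ENSMUSG00000000290, chromosome 10, 77530252 to 77565708, plus strand), the β chain of LFA-1 and of the myeloid integrins, had 301 and 298 CPM in KO EAE, 276 and 322 CPM in KO and 287 CPM in both WT libraries. The KO values spread to either side of WT. Its change was 0.06 ± 0.10 for KO against WT (edgeR, adjusted p = 0.730). Normalized values were 22895 and 22096 in KO against 23615 and 22832 in WT, a change of -0.05 ± 0.09 (limma, adjusted p = 0.856). Both KO EAE libraries lay above WT, at a change of 0.06 ± 0.10 (edgeR, adjusted p = 0.735).

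Itgae (ENSMUSG00000005947, chromosome 11, 73090583 to 73147446, plus strand) encodes αE, or CD103, a chain that TGF-β induces and that marks a share of regulatory T cells poised for epithelial sites. It had 88.3 and 104 CPM in KO EAE, 60.1 and 98.7 CPM in KO and 137 and 181 CPM in WT, so all 4 knockout libraries lay below both WT libraries. Means were 96.3 ± 11.4, 79.4 ± 27.4 and 159 ± 31.4 CPM (SD, n = 2 each) for KO EAE, KO and WT. The log2 change of -1.003 ± 0.25 for KO against WT had the largest size among the members but lay just outside the threshold (edgeR, adjusted p = 0.0529), and that of -0.72 ± 0.25 for KO EAE against WT was further from it (adjusted p = 0.139). DESeq2 called Itgae in both comparisons (-0.99, adjusted p = 0.000909, for KO, and adjusted p = 0.0244 for KO EAE). For KO, edgeR called it with no filter (adjusted p = 0.0369), scaling on T cell genes (0.0436) and the 4 compared libraries alone (0.0465). A block for replicate number, which is no pairing, also gave a call (edgeR, adjusted p = 0.00666). DESeq2 size factors in edgeR gave none (adjusted p = 0.0552). Leaving out 1 library gave a change between -1.40 without KO replicate 2 (adjusted p = 0.0386) and -0.68 without KO replicate 1 (adjusted p = 0.186). The normalized table had 203 and 523 in KO against 639 and 899.6 in WT, resting on 246 and 609 reads against 502 and 835. There the change was -1.21 ± 0.43 (limma, adjusted p = 0.306), with no overlap between groups. The authors' deposited table lists -0.58 ± 0.22 with an adjusted p of 0.135.

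Itga4 (ENSMUSG00000027009, chromosome 2, 79255426 to 79333123, plus strand) had 631 and 701 CPM in KO EAE, 602 and 604 CPM in KO and 579.5 and 577 CPM in WT. The groups were stepped without overlap, yet the steps were small. The change was 0.06 ± 0.10 for KO against WT (edgeR, adjusted p = 0.741) and 0.20 ± 0.10 for KO EAE against WT (edgeR, adjusted p = 0.264). In the normalized table the sign was the opposite, at -0.12 ± 0.11 (limma, adjusted p = 0.666), with 5229 and 5537 in KO below 5978 and 5698 in WT. Exons of Itga4 share 1124 bases with Cerkl on the other strand, and since strand use in counting is not given, reads of the pair cannot be told apart; Cerkl had only 4.67 to 7.54 CPM.

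Itgal (ENSMUSG00000030830, chromosome 7, 127296260 to 127335138, plus strand), the α chain of LFA-1, had 478 and 477 CPM in KO EAE, 439 and 486 CPM in KO and 467 and 464 CPM in WT. KO values lay to both sides of WT. The change was -0.01 ± 0.09 for KO against WT (edgeR, adjusted p = 0.967) and -0.18 ± 0.11 in the normalized table (limma, adjusted p = 0.514), where 18886 and 15850 in KO stood below 19692 and 19394 in WT. No call was made in either table.

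Selplg (ENSMUSG00000048163, chromosome 5, 113818536 to 113832644, minus strand) had 467 and 562 CPM in KO EAE, 569.7 and 465 CPM in KO and 645 and 583 CPM in WT. Both knockout groups lay below WT, but each had replicates about as far apart as the gap to WT. The change was -0.25 ± 0.15 for KO (edgeR, adjusted p = 0.338) and -0.26 ± 0.15 for KO EAE (edgeR, adjusted p = 0.332), both against WT. The normalized values of 21281 and 20220 in KO, against 23996 and 21534 in WT, gave -0.13 ± 0.10 (limma, adjusted p = 0.582).

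S1pr1 (ENSMUSG00000045092, chromosome 3, 115710433 to 115715072, minus strand) had 256 and 219.5 CPM in KO EAE, 234 and 238.5 CPM in KO and 236 and 243 CPM in WT. The 3 groups overlapped, and the KO EAE libraries were the farthest apart. Its change for KO against WT was -0.02 ± 0.09 in the count table (edgeR, adjusted p = 0.912) and -0.02 ± 0.09 in the normalized table (limma, adjusted p = 0.942), where KO had 18061 and 17268 and WT 18610 and 17258. The authors' deposited table likewise lists -0.02. Of the members, S1pr1 and Itgb2 were the 2 whose groups overlapped in the normalized table.

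**Figure D2:**
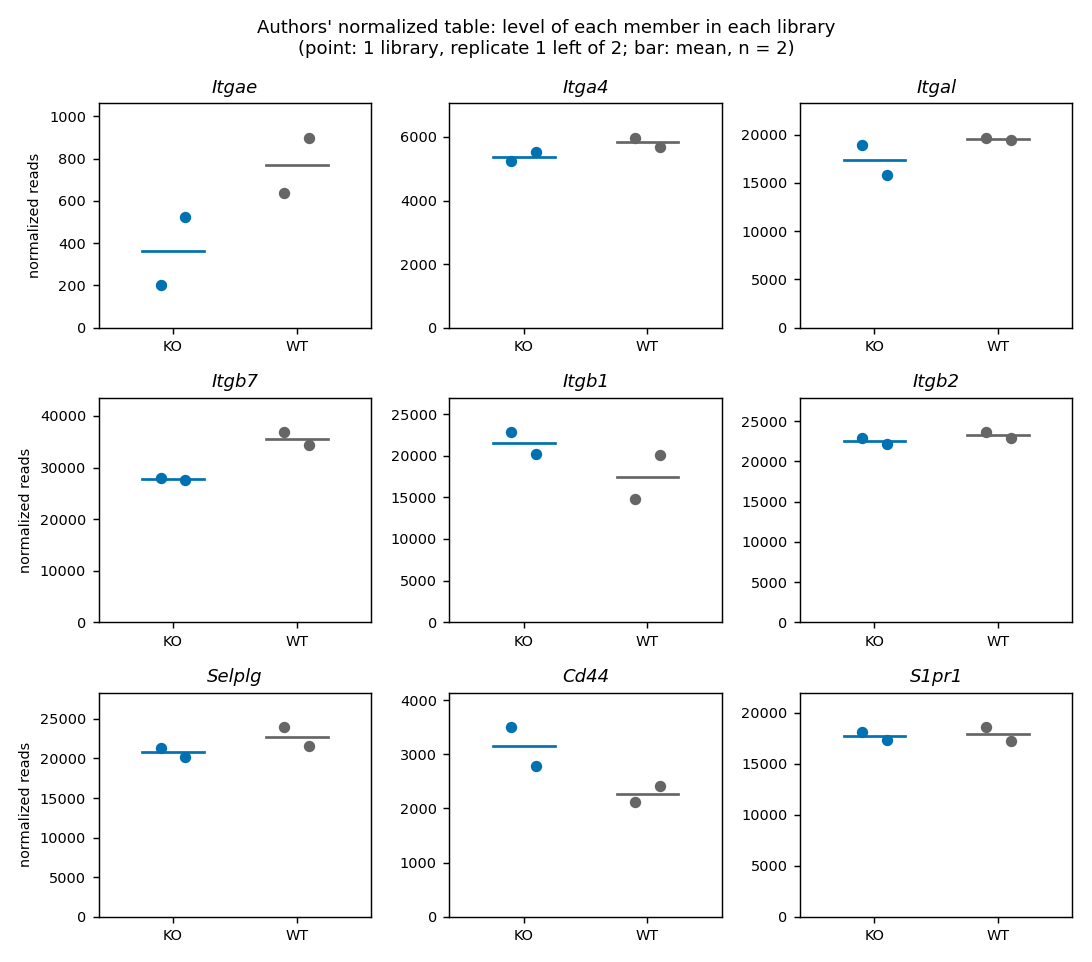
Level of each member in the authors' normalized table, in reads divided by the authors' size factors on a linear axis from 0, for KO (left) and WT (right); each point is 1 library and each bar the mean of 2. Itgb7 has 28014 and 27537 in KO below 36852 and 34307 in WT, and the Cd44 and Itgb1 points of KO lie above those of WT.

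Counted by overlap alone, 3 members had both KO libraries above both WT libraries of the count table (Itga4, Itgb1 and Cd44), 2 had both below (Itgae and Selplg) and 4 overlapped; over all genes tested, 65.2% did not overlap. For KO EAE against WT, 5 members were higher, 2 were lower and 2 overlapped, where 60.6% of all genes tested did not overlap. The normalized table had 2 members higher (Itgb1 and Cd44), 5 lower (Itgae, Itga4, Itgb7, Itgal and Selplg) and 2 overlapping, where 45.7% of genes tested did not overlap. Cd44 and Itgb1 on the higher side, and Itgae and Selplg on the lower side, held their side in both tables. The share of all genes that did so was not computed, so this is not read as a trait of these members. No member was called in the normalized table, where limma called 0.181% of 12149 genes (0.14% higher and 0.0412% lower; 22 genes, and 1592 at an unadjusted p under 0.05) and edgeR on recovered reads called 0.0979%.

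EAE was set against steady state within the knockout. No member passed the test: 0 of 9 were called by edgeR, beside 0.0137% of all genes tested (2 genes, with 1378 at an unadjusted p under 0.05). DESeq2 called 167 genes in this comparison and none of the 9. The largest change was that of Itgae, at 0.28 ± 0.25 (edgeR, adjusted p = 0.705). Itga4 was the 1 member whose groups did not overlap, at 0.14 ± 0.10 (edgeR, adjusted p = 0.647), where 38.3% of all genes tested did not overlap. Cd44 and Itgb1 changed by -0.06 ± 0.12 (adjusted p = 0.873) and 0.05 ± 0.09 (adjusted p = 0.851). With 2 libraries a group, these p-values do not show that the groups were alike.

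**Figure D3:**
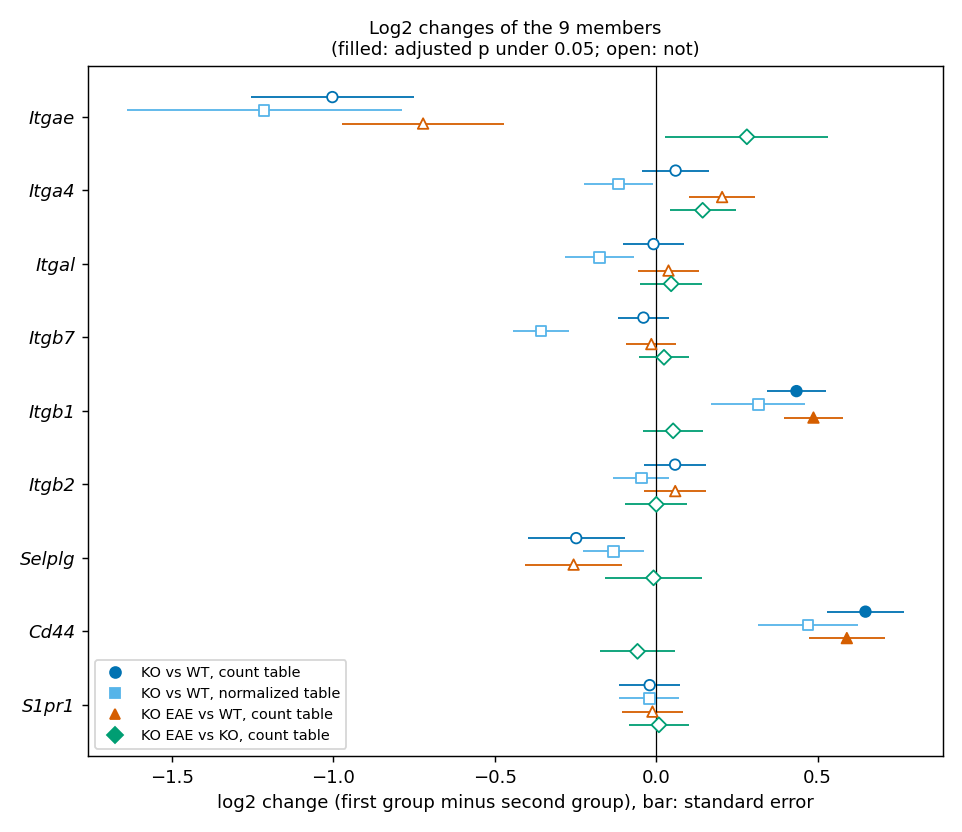
Log2 change of each member, first-named group minus second, with its standard error as a bar; circles, squares, triangles and diamonds mark KO against WT in the count table, KO against WT in the normalized table, KO EAE against WT and KO EAE against KO, and filled marks passed an adjusted p of 0.05. Only Itgb1 and Cd44 have filled marks, at 0.43 and 0.65 for KO and 0.49 and 0.59 for KO EAE, both against WT in the count table.

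Per kilobase of exon, the members were unequal in level. In KO cells, by the count table, Selplg came first at a mean of 121 CPM per kb, followed by Itgb7 at 105, Itgb2 at 98.0, Itgb1 at 85.4, S1pr1 at 77.6, Itgal at 70.4, Itga4 at 43.1, Cd44 at 40.4 and Itgae at 17.3. Libraries of neighbours overlapped for Itgb7 and Itgb2 and for Itga4 and Cd44. KO EAE cells had the same order, with overlap between S1pr1 and Itgal. In WT the order differed, since Itgb1 at 63.2 CPM per kb stood below S1pr1 at 78.7 and Itgal at 70.8, and Cd44 at 25.7 stood below Itgae at 34.7. Selplg at 144, Itgb7 at 108, Itgb2 at 94.1 and Itga4 at 41.4 CPM per kb kept their places, and no neighbours overlapped in WT. The normalized table had a wider range, with 10027 normalized reads per kb for Itgb7 and 79.3 for Itgae in KO, and 12845 and 168 in WT. Its KO order ran Itgb7, Itgb2, S1pr1, Itgb1, Selplg, Itgal, Cd44, Itga4 and Itgae, whereas in WT Selplg stood above Itgb1 and Itga4 above Cd44. Lengths were summed over all annotated exons, 13.978 kb for Itga4, and use of single exons was not measured.

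Because an α chain needs its β partner, the ratio of the 2 chains was taken within each library. Its level differed between the 2 tables for libraries of the same name, as with Itga4 to Itgb7. The ratios are therefore compared only between groups of the same table and do not measure the supply of a pair. Itgae to Itgb7 stood at 0.184 and 0.211 in KO EAE, 0.129 and 0.200 in KO and 0.278 and 0.366 in WT in the count table, lower in all knockout libraries. In the normalized table KO had 0.00439 and 0.0115 against 0.0105 and 0.0159 in WT, which overlapped. The balance of β1 to β7 moved the other way: Itgb1 to Itgb7 was 0.834 and 0.829 in KO EAE, 0.794 and 0.836 in KO and 0.571 and 0.603 in WT. Its normalized ratio was 0.553 and 0.498 in KO against 0.273 and 0.396 in WT, so the groups were apart in both tables, through Itgb1 in the count table and through both genes in the normalized one. The α4 chain per β1 chain was correspondingly lower in knockout cells. Itga4 to Itgb1 was 0.517 and 0.560 in KO EAE, 0.534 and 0.480 in KO and 0.677 and 0.634 in WT, with 0.0669 and 0.0801 in KO against 0.118 and 0.0831 in WT in the normalized table. Itga4 to Itgb7 was slightly higher in knockout cells, at 0.431 and 0.464 in KO EAE, 0.424 and 0.401 in KO and 0.386 and 0.383 in WT, and at 0.0370 and 0.0398 in KO against 0.0321 and 0.0329 in WT in the normalized table. For the LFA-1 chains, Itgal to Itgb2 was 0.739 and 0.745 in KO EAE, 0.738 and 0.702 in KO and 0.755 and 0.750 in WT, and 0.383 and 0.333 in KO against 0.387 and 0.395 in WT in the normalized table. The knockout libraries lay below WT in both tables, by a small margin. An exact permutation test over 2 against 2 libraries cannot go below p = 0.333, so the ratios are given with no test. RNA ratios say nothing of the pairs at the surface, and β1 has partners other than α4.

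**Figure D4:**
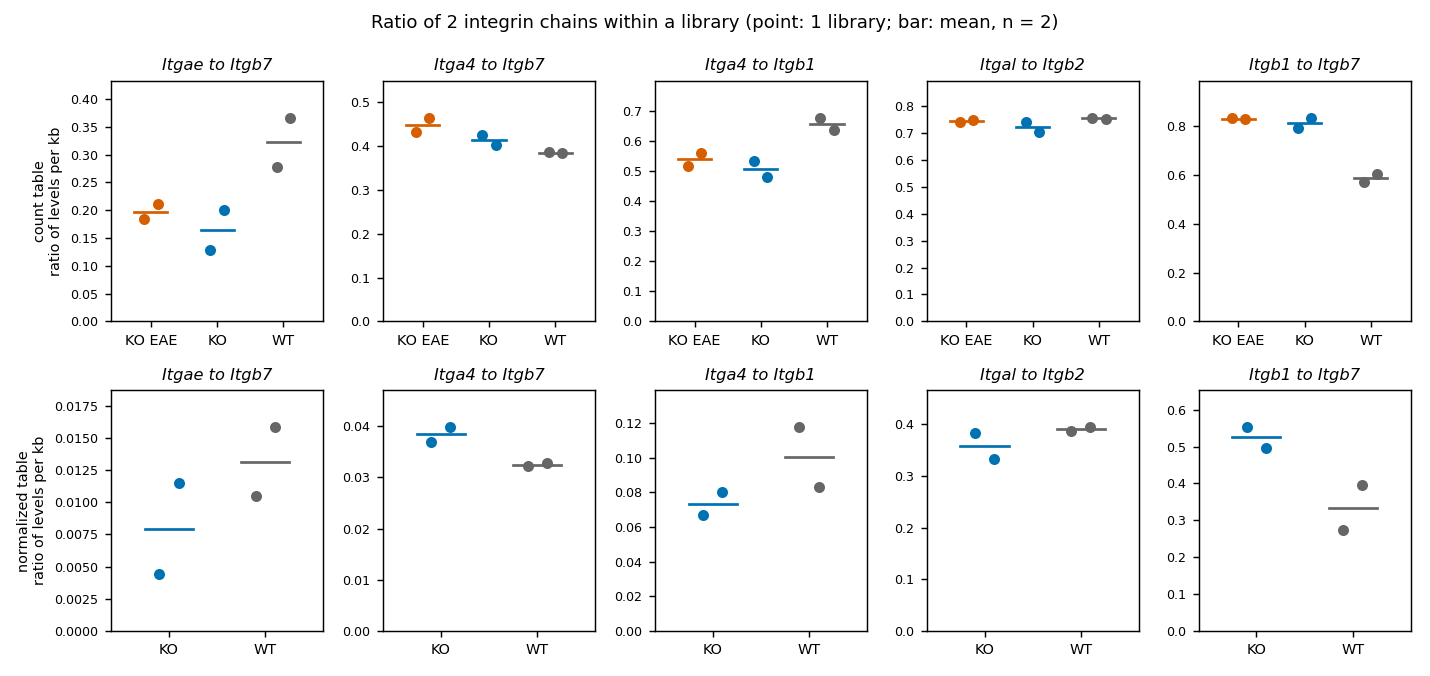
Ratio of 2 integrin chains within each library, from levels per kb of exon, on linear axes from 0; the upper row is the count table (KO EAE, KO and WT) and the lower row the normalized table (KO and WT), with 1 point per library and a bar at the mean of 2. Itgb1 to Itgb7 lies between 0.794 and 0.836 in the 4 knockout libraries of the count table and at 0.571 and 0.603 in WT.

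Genes most like a called member were found by the root mean square difference of log2 CPM over the 6 libraries, each gene centred on its own mean, among the 8915 genes averaging 20 CPM or more. Closest to Itgb1 were Gab3 (0.0287), an adaptor protein gene, and Wdr12 (0.0384), which acts in ribosome assembly. Closest to Cd44 were Enc1 (0.0561), an actin-associated protein gene, and Evi2a (0.0708). Gab3 for example had 22.8 and 22.3 CPM in KO EAE, 21.0 and 22.4 CPM in KO and 15.7 and 16.4 CPM in WT.

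Integrin chains outside the 9 members moved more. Of 20 measured, 19 were tested. In KO against WT 7 rose and 2 fell, beside 9.41% higher and 3.46% lower among all genes tested. The median log2 change was 0.60, against -0.01 for the members and for all genes. Itgax, the αX chain CD11c of dendritic cells and macrophages, had 59.3 and 70.6 CPM in KO EAE, 92.1 and 123 CPM in KO and 5.005 and 6.31 CPM in WT. Itgb5, Itga9, Itgad and Itga1 rose by 4.08 ± 0.16, 3.65 ± 0.16, 3.58 ± 0.19 and 2.76 ± 0.48 on the log2 scale (edgeR, adjusted p = 5.2e-05, 7.7e-05, 0.000126 and 0.0149). Itgad encodes αD, a β2 partner of tissue macrophages, and the myeloid list had a median change of 3.55 in the same comparison; its part in these rises was not tested. Itgb8, whose product pairs with αv to activate latent TGF-β and is used by regulatory T cells for that purpose, fell. It had 17.9 and 14.0 CPM in KO EAE, 13.1 and 12.0 CPM in KO and 41.7 and 36.7 CPM in WT, a change of -1.64 ± 0.18 for KO (edgeR, adjusted p = 0.00222) and -1.30 ± 0.17 for KO EAE (edgeR, adjusted p = 0.00687). Itga6, a laminin receptor chain named here after its values were seen, had 248 and 176 CPM in KO EAE, 214.5 and 234 CPM in KO and 383 and 406 CPM in WT. It fell by 0.82 on the log2 scale for KO (edgeR, adjusted p = 0.0247), its change in the normalized table was -0.82 ± 0.13 (limma, adjusted p = 0.0641), and the authors' deposited table lists -0.75 ± 0.13 with an adjusted p of 9.6e-07. Of the 9 calls in this list, 6 held in all 4 fits that left out 1 library; that of Itga1 held only without WT replicate 2, and those of Itga6 and Itga7 in none (adjusted p of up to 0.191 and 0.141). For KO EAE against WT the list again had 7 higher and 2 lower, of which 4 held in all such fits. In the normalized table limma called none of 16 tested chains. Itgb3, which rose in the count table (191 and 184 CPM in KO, 123 and 125 in WT), was at 1.08 ± 0.16 (limma, adjusted p = 0.0592). Itga7 was at -0.79, opposite in sign to its count table change of 1.13. The authors' deposited table also calls Itgb3 (0.93 ± 0.15, adjusted p = 2.1e-07), Itgad (1.05 ± 0.20, 2.5e-05) and Itga9 (0.96 ± 0.21, 0.0004). It does not call Itgax, Itgb5, Itgb8 or Itga7 (adjusted p = 0.0561, 0.067, 0.415 and 0.406).

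Of 30 genes that switch integrins on or link them to the cytoskeleton, among them talins, kindlins and RAP1, 3 rose in KO against WT and none fell, with a median of -0.01. That share is near the 9.41% of all genes tested that were called higher. Those called were Parvb, at 2.81 ± 0.33 (edgeR, adjusted p = 0.00312), Vcl, the cytoskeletal linker vinculin, at 1.10 ± 0.22 (adjusted p = 0.0242), and Ptk2, focal adhesion kinase, at 0.83 ± 0.16 (adjusted p = 0.0228). The Parvb call held without each library in turn, the Vcl call only without KO replicate 2 and the Ptk2 call in no such fit. Parvb had at most 3 recovered reads in a library of the normalized table and was not tested there. In KO EAE against WT, Parvb and Vcl were called, each in 2 of the 4 fits that left out 1 library (adjusted p of up to 0.0528 and 0.103).

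Ligands and endothelial selectins had 4 rises among 14 tested genes in KO against WT, at a list median of 0.23. Over all genes tested, 9.41% were called higher. Vcam1, the ligand of α4β1, had 285 and 284 CPM in KO EAE, 288 and 343 CPM in KO and 50.05 and 66.1 CPM in WT, a change of 2.44 ± 0.16 for KO (edgeR, adjusted p = 0.000264). It was also the 1 gene of the adhesion lists called in the normalized table, at 1.43 ± 0.18 (limma, adjusted p = 0.0486), with 8224 and 8442 in KO against 2513 and 3807 in WT. That limma call held without either WT library and was lost without either KO library (adjusted p of up to 0.888). Vascular and splenic stromal cells and macrophages express Vcam1, and the myeloid list summed to 17728 to 21728 normalized reads in KO against 6370 to 10716 in WT; its part was not tested. Spp1 (osteopontin), F11r (JAM-A) and Cdh1 (E-cadherin, the ligand of αEβ7) rose by 4.48 ± 0.84, 4.45 ± 0.33 and 2.01 ± 0.46 (edgeR, adjusted p = 0.0196, 0.000479 and 0.0377). Their WT libraries held only 10 and 4 reads for Spp1, 17 and 15 for F11r and 16 and 28 for Cdh1. The count table calls of Vcam1 and F11r held without each library in turn and those of Spp1 and Cdh1 in no such fit (adjusted p of up to 0.112 and 0.210), but F11r was at -0.09 ± 0.68 in the normalized table (limma, adjusted p = 0.967). Cdh1 had 0 and 14 recovered reads there in KO against 0 and 53 in WT, a change of -1.08 ± 2.63 (limma, adjusted p = 0.890). In KO EAE against WT, Selp (P-selectin) was the 1 gene of this list that fell, by 2.21 on the log2 scale (edgeR, adjusted p = 0.0153), from few reads, with 35 and 26 in KO EAE against 157 and 137 in WT; the call held only without KO EAE replicate 1.

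Enzymes that build the sugars PSGL-1 needs to bind selectins had 3 rises among 13 genes in KO against WT, at a list median of 0.19. That stood beside 9.41% of all genes tested called higher, while Selplg itself was not called. Fut4, a fucosyltransferase, had 103 and 139 reads in KO EAE, 200 and 194 in KO and 19 and 22 in WT, a change of 3.27 ± 0.29 (edgeR, adjusted p = 0.00105). Gcnt1, the core 2 branching enzyme, and St3gal6, a sialyltransferase, changed by 1.49 ± 0.31 (adjusted p = 0.0268) and 1.33 ± 0.15 (adjusted p = 0.00292). The Gcnt1 call held only without WT replicate 2, and the other 2 held without each library in turn. In the normalized table none of 12 tested was called, with St3gal6 at 0.04 ± 0.39.

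Around S1pr1, 3 of 16 genes of sphingosine 1-phosphate signalling and egress rose in KO against WT, with a median of 0.05. Of all genes tested, 9.41% were called higher. Plpp3, a lipid phosphatase of the cell surface, had 441 and 453 reads in KO EAE, 735 and 745 in KO and 16 and 29 in WT, a change of 5.05 ± 0.27 (edgeR, adjusted p = 0.00014). S1pr3, a receptor typical of vascular and stromal cells, changed by 3.36 ± 0.48 (adjusted p = 0.00727), and Sgpl1, the lyase that degrades the ligand, by 0.31 ± 0.07 (adjusted p = 0.0303). The Plpp3 call held without each library in turn, that of S1pr3 only without KO replicate 1 and that of Sgpl1 in no such fit. Klf2, which drives S1pr1 transcription, and Cd69, whose product takes S1PR1 off the surface, are given for their roles. They changed by -0.17 ± 0.08 (edgeR, adjusted p = 0.207) and -0.48 ± 0.22 (adjusted p = 0.223). In the normalized table limma called none of the 15 genes tested. Plpp3 had 280 and 157 there in KO against 30.6 and 137 in WT. The authors' deposited table lists Plpp3 at 0.38 with an adjusted p of 0.387 and Sgpl1 at 0.02 with an adjusted p of 0.973.

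In KO EAE against KO, no gene of any of the integrin, activation, ligand, selectin ligand synthesis or sphingosine 1-phosphate lists was called. Only 0.0137% of all genes tested were called in that comparison.

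**Figure D5:**
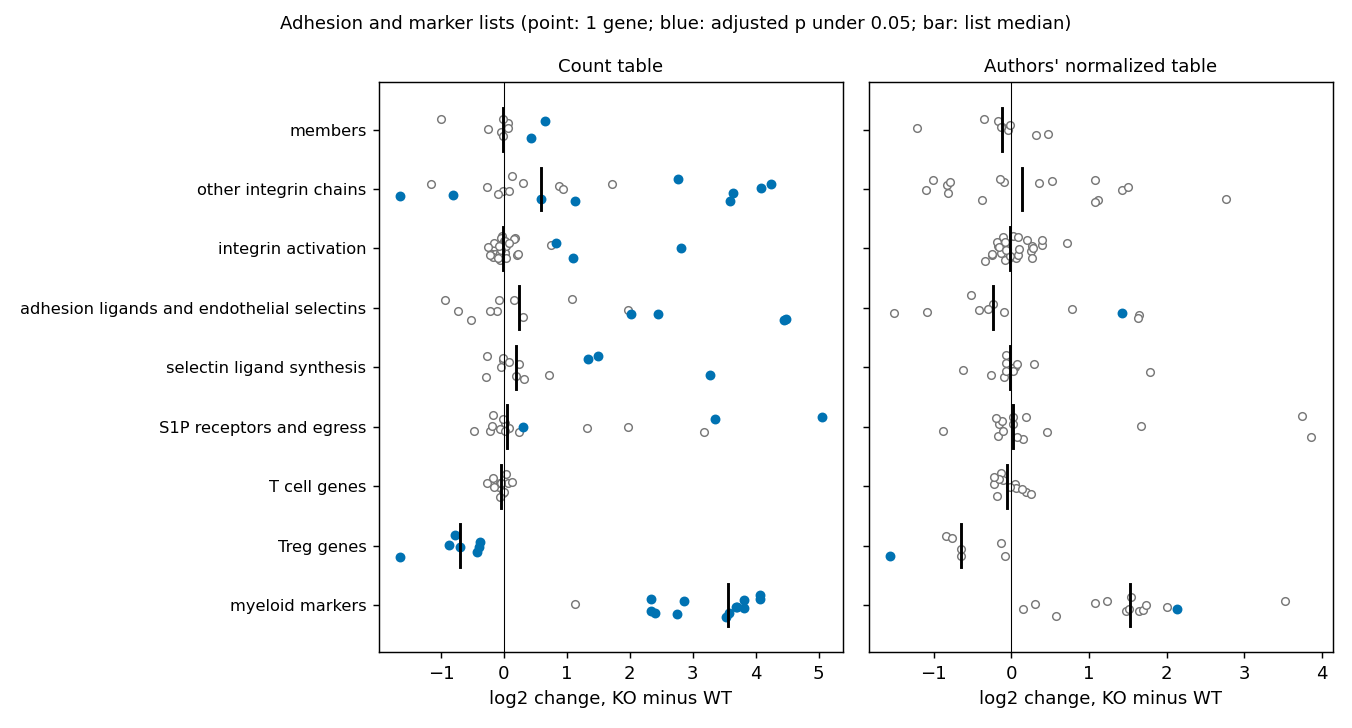
Log2 change of every tested gene of each list shown, KO minus WT, in the count table (left) and the normalized table (right); each point is 1 gene, blue points passed an adjusted p of 0.05 and black bars are list medians. The members have medians of -0.01 and -0.12, other integrin chains of 0.60 and 0.14, and myeloid markers of 3.55 and 1.53.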

How the data were processed

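Per the labels, regulatory T cells (Tregs) came from spleen and lymph nodes, and NEBNext Ultra II libraries were run on a NextSeq500. HISAT2, HTSeq, DESeq2 and mm10 are named per the submitters' processing notes; the versions, annotation and strand setting are not stated. The authors deposited 3 tables. One holds whole-number read counts of 6 libraries, not normalized. Another holds a normalized signal of the 4 KO and WT libraries, for which the authors divided each gene's count by the library's size factor. The third is the authors' deposited comparison, with log2 fold changes, a test score and p-values, per the file headers.

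The count test was edgeR 4.0.16 under R 4.3.3 (TMM; filterByExpr at a count of 10 and a total of 15; quasi-likelihood F test; all 6 libraries, 1 coefficient per group, 3 residual degrees of freedom), with Benjamini-Hochberg adjustment over 14548 genes and a threshold of 0.05. SE is the log2 change divided by the square root of F. CPM of list genes are TMM-scaled, except Bcl11b, Cerkl, single marker genes and list sums. Normalized values were tested as log2(value + 1) with limma 3.58.1 (trend; mean of at least 10), so low genes' changes are understated. Every normalized value was a whole multiple of 1 read (100%, tolerance 0.02 reads), and the recovered reads, 24065561 to 25335011 in KO and 16884434 to 19410133 in WT, were tested as an alternative with edgeR, which called 12 genes, and with DESeq2 1.42.0. Libraries of the same name differ between tables, so tests stay within a table. Rows naming no gene (25 and 27, at most 0.217% and 0.284% of reads) were left out. Replicates differed beyond sampling noise. Scripts were tested on simulated data.

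Members and lists were chosen with earlier results of these data known. Named genes were the 9 members, the genes called in KO against WT of each adhesion list (up to 6, by size; up to 4 for other comparisons), the 2 genes most like each called member and defining markers. A list of further adhesion receptors is not reported here. All list genes matched by symbol or synonym. IDs and positions are from GENCODE M21 (mm10, 1-based), by symbol; promoters are from RefSeq (GRCm38.p6).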

Additional observations from a re-analysis of the deposited data

How the results depend on the processing

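Of 369 log2 changes of members recomputed under an alternative, 308 kept their direction and their side of the threshold. Counts of genes called moved most. KO against WT went to 3121 when fitted on its 4 libraries alone and to 846 to 917 without single libraries. KO EAE against KO had 167 by DESeq2, 0 with the replicate block, 0 on its 4 libraries and 0 to 313 without single libraries, the highest without KO EAE replicate 1. KO EAE against WT had 2227 by DESeq2, 782 on its 4 libraries and 603 to 3762 without single libraries, the highest again without KO EAE replicate 1. The normalized table's 22 became 1 with a pseudocount of 0.1, 50 with one of 10, 1 with no filter, 9 when scaled on T cell genes, 12 by edgeR and 372 by DESeq2 on recovered reads, 90 with the replicate block and 0 to 71 without single libraries, the highest without WT replicate 2.

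Members called numbered 0 to 1 without single libraries for KO against WT and 0 to 2 for KO EAE against WT. DESeq2 on recovered reads added 1, Itgb7. Itgae joined Cd44 and Itgb1 in KO against WT under DESeq2, no filter (adjusted p = 0.0369), T cell scaling (0.0436), the 4 libraries alone (0.0465) and the replicate block (0.00666), and in KO EAE against WT under DESeq2 and the block (0.0277).

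Signs turned only for changes that passed no threshold. For KO against WT, Itgal was 0.0020 by DESeq2, 0.013 with no filter, 0.034 with T cell scaling and 0.0038 on 4 libraries; S1pr1 was 0.0017 with no filter and 0.025 with T cell scaling; Itgb7 was 0.0048 with T cell scaling. For KO EAE against KO, Itgb2 was -0.00019 with DESeq2 size factors, -0.024 by DESeq2, -0.025 with no filter and -0.022 with T cell scaling. Itgb7 was -0.00088 by DESeq2 and -0.0018 with no filter, S1pr1 -0.015 by DESeq2, -0.016 with no filter and -0.021 with T cell scaling, and Selplg 0.0053 on 4 libraries. For KO EAE against WT with T cell scaling, Itgb7 was 0.0049 and S1pr1 0.0041. Without single libraries, KO EAE against KO spanned -0.12 to 0.12 for Itgb2, -0.15 to 0.14 for Selplg, -0.10 to 0.11 for S1pr1, -0.047 to 0.69 for Itgae, -0.036 to 0.14 for Itgb1, -0.028 to 0.074 for Itgb7, -0.037 to 0.13 for Itgal and -0.19 to 0.086 for Cd44. KO against WT spanned -0.082 to 0.0073 for Itgb7, -0.084 to 0.069 for Itgal, -0.056 to 0.17 for Itgb2 and -0.033 to 0.0010 for S1pr1 (-0.076 to 0.033 in the normalized table), and KO EAE against WT -0.13 to 0.098 for S1pr1. Their causes were not tested.

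Samples share only a replicate number: same-numbered deviations from group means correlated at 0.029 (KO and WT), 0.21 (KO EAE and KO), -0.17 (KO EAE and WT) and 0.0033 (normalized table), so the block is no pairing. Fits that leave 1 library in a group assume that it varies like the others. Each member had at least 246 reads in every library of both tables. Whether depth affected the changes was not tested.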
